A study of Mus musculus with 15 samples.

Results

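The levels of 10 genes were followed across all 15 libraries of a mouse liver tumour series: Glul, Oat, Rhbg, Rgn, Lect2, Tbx3, Axin2, Lgr5, Rnf43 and Znrf3. They were taken by name as targets of Wnt and beta-catenin signalling or genes of hepatocytes around the central vein, and all 10 were found among the 23284 gene symbols of the count table. Of the libraries, 6 were Hmgb1-deleted tumours, from mice with floxed Hmgb1 and Albumin-Cre (Hgmb1Dhep in the labels), and 6 were floxed tumours with Hmgb1 intact (Hgmb1fl/fl in the labels). The others were 3 normal livers of C57Bl/6 mice, for which no treatment and no age are given. Tumours of both genotypes were induced with diethylnitrosamine (DEN), a liver mutagen, given at 25 mg/kg when pups were 15 days old. From week 8 the mice also received the hepatotoxic solvent carbon tetrachloride (CCl4) at 0.5 µl/g each week for 15 weeks. Albumin-Cre acts in hepatocytes and in bile duct cells, so the other cells of a tumour keep Hmgb1. The samples held no tumour-free liver from treated mice, so tumour state and treatment cannot be told apart against normal liver. The same holds for the genotype and for any difference in strain or age between tumour-bearing mice and normal livers. The labels do not give the strain of the floxed mice or say whether tumours shared a mouse or litter, so each p-value covers just the spread among these samples, which may be technical.

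In the liver lobule, endothelial cells of the central vein release Wnt ligands and R-spondin, which keep beta-catenin active in the hepatocytes next to the vein. Stable beta-catenin enters the nucleus, binds TCF factors and switches on a pericentral programme that includes glutamine synthesis from ammonia and part of drug metabolism. Several of its targets feed back on the pathway, and liver tumours with activating beta-catenin mutations are known for strong glutamine synthetase staining. In bulk tissue, fewer cells of a type and less RNA per cell cannot be told apart.

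Hmgb1 itself was at 14.8 CPM ± 2.76 in Hmgb1-deleted tumours (SD, n = 6), 27.9 CPM ± 3.36 in floxed tumours (SD, n = 6) and 23.9 CPM ± 6.07 in normal livers (SD, n = 3), where CPM is the count relative to the scaled library total. Hmgb1-deleted and floxed tumours did not overlap (exact two-sided permutation test, p = 0.00216, the smallest possible, adjusted p = 0.00649 over 3 pairs). Library totals were 18973246 to 26293378 counts in Hmgb1-deleted tumours, 20191452 to 30929442 in floxed tumours and 23193714 to 26997782 in normal livers. On the first principal component of all expressed genes, Hmgb1-deleted tumours 3, 4 and 6 lay at 18.6, 25.1 and 7.59, the other Hmgb1-deleted tumours at -20.2 to -19.2, floxed tumours at -50.2 to -30.3 and normal livers at 80.6 to 81.8. The second component set off Hmgb1-deleted tumours 2 and 5, at -57.1 and -63.8, where all other libraries lay between -17.3 and 29.1. Results that rest on these libraries are given with and without them.

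Promoter windows of 300 bases were at hand for 5 of the 10 genes, from RefSeq on build GRCm38.p6. Each runs from 250 bases before to 50 bases after a transcript start. Glul and Axin2 are shown because their RNA moved together across the Hmgb1-deleted tumours, and Lect2 because its level did not follow them in the floxed tumours. Capitals mark a match, on either strand, to the motif CTTTGAA or to its variants, which are CTTTGAT and, with another letter changed, CTTTGTA or the related CTTTGTT, core sequences bound by TCF and LEF factors. The letters are given 5′ to 3′ on the gene's strand.
Glul promoter, chr1:153899679-153899978, plus strand: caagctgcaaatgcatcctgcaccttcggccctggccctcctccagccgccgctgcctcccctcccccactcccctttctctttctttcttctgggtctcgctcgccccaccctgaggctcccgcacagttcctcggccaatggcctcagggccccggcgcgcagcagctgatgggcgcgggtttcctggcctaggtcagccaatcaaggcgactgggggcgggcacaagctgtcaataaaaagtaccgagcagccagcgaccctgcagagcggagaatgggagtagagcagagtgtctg
Axin2 promoter, chr11:108920099-108920398, plus strand: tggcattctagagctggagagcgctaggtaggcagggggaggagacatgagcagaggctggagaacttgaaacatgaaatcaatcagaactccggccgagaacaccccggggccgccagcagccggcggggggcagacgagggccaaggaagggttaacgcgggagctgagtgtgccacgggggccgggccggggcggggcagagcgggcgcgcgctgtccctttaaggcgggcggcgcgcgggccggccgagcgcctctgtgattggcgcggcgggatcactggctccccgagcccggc
Lect2 promoter, chr13:56548489-56548788, minus strand: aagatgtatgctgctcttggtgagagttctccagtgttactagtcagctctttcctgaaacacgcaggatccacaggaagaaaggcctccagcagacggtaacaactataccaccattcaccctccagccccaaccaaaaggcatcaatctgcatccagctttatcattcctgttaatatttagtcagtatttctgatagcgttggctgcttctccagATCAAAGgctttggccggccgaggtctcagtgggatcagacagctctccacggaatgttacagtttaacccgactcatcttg
One of the 6 windows of the 5 genes (Glul, Oat, Axin2, Lect2 and Rnf43, which has 2) held such a match, the Lect2 window. Of 32851 mouse promoter windows of the same length, 16.9% held at least 1. A match is a stretch of letters and not a measured binding site.

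Against normal liver, floxed tumours had less RNA of 9 of the 10 genes, and Lect2 did not pass the test. The falls were largest for Oat, Rgn and Glul, which were 12.7-fold, 11.2-fold and 8.62-fold lower in the fitted folds. All 9 were called by edgeR (quasi-likelihood test, p adjusted by Benjamini-Hochberg over all 13784 genes tested and under 0.05), where 48.7% of all genes were called, 24.9% higher and 23.8% lower. The 6 floxed tumours lay below all 3 normal livers for each of the 9, which was so for 23.4% of all genes. The median log2 fold change over the 10 genes was -2.33, against 0.06 over all genes tested. The number called stayed at 9 when each library was left out in turn.

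Hmgb1-deleted tumours were set against the same normal livers. Glul, Axin2, Lgr5, Rnf43 and Znrf3 were lower in them, and Oat, Rhbg, Tbx3, Rgn and Lect2 did not pass. All 12 tumours lay below every normal liver for these 5 and for Rgn. For Hmgb1-deleted tumours alone these were 6 of the 10 genes, against 19.1% of all genes. The 5 calls of 10 stand against 34.7% of all 13784 genes called, 18.1% higher and 16.6% lower (edgeR, adjusted p under 0.05). The median log2 fold change of the 10 was -1.22, against 0.05 over all genes. The count changed when libraries were left out. It was 1 (Lgr5) without normal liver 1, 2 or 3, where the genes called fell from 4787 to 2113, 2227 and 3109. It was 3 without Hmgb1-deleted tumour 1, 2, 3 or 6 (4081 to 4855 genes called) and 7 without tumour 4 (4912 genes called). Without tumours 2 and 5 it was 2 (Lgr5 and Rnf43), where 4229 of 13414 genes were called. Leaving those tumours out raises the group for most of the 10 genes by construction. Tumours 3, 4 and 6 were the 3 highest of their group for 9 of the 10 genes, so that leaving them out lowers the group by construction: the count was then 10, where 6462 of 13534 genes were called, 3079 of them lower.

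Hmgb1-deleted tumours were then compared directly with floxed tumours, which asks how the tumours differ with the deletion. Rgn and Oat were higher in the Hmgb1-deleted tumours, at 4.53 times and 6.18 times the floxed level in the fitted folds, and the other 8 did not pass. These 2 of 10 stand against 7.78% of all 13433 genes called, 4.45% higher and 3.33% lower (edgeR, adjusted p under 0.05). The log2 fold change was above 0 for 8 of the 10, with a median of 1.36 against 0.02 over all genes. Without Hmgb1-deleted tumours 3, 4 and 6, which leaves the lower tumours of the group for most of these genes, none of the 10 was called and 808 of 13925 genes were, and Rgn had a log2 fold change of 0.91 and Oat of 0.49 (edgeR adjusted p = 0.223 and 0.582). Without Hmgb1-deleted tumours 2 and 5 the calls were 4, with Glul and Axin2 added, where 1082 of 13610 genes were called. Both tumours are among the lower ones of the group for most of these genes, so leaving them out raises the group by construction.

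**Figure D1:**
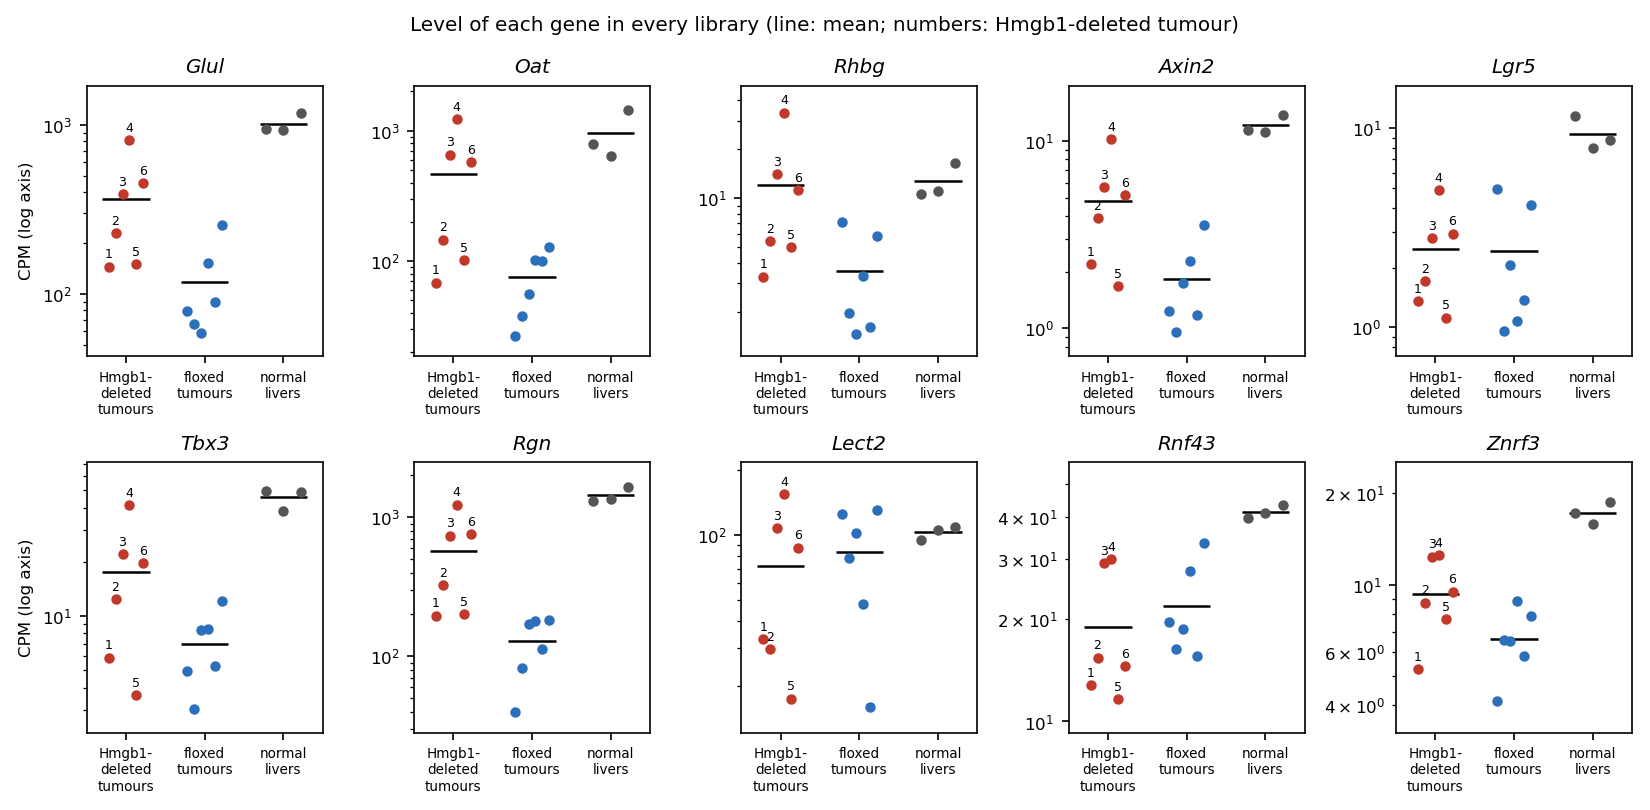
Level of each of the 10 genes in every library, in CPM on a log axis, with Hmgb1-deleted tumours on the left, floxed tumours in the middle and normal livers on the right. Each point is a library, each line a group mean, and the numbers name the Hmgb1-deleted tumours; tumour 4 is the highest of its group for all 10 genes, and Rgn is the gene whose tumour groups do not overlap.

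**Figure D2:**
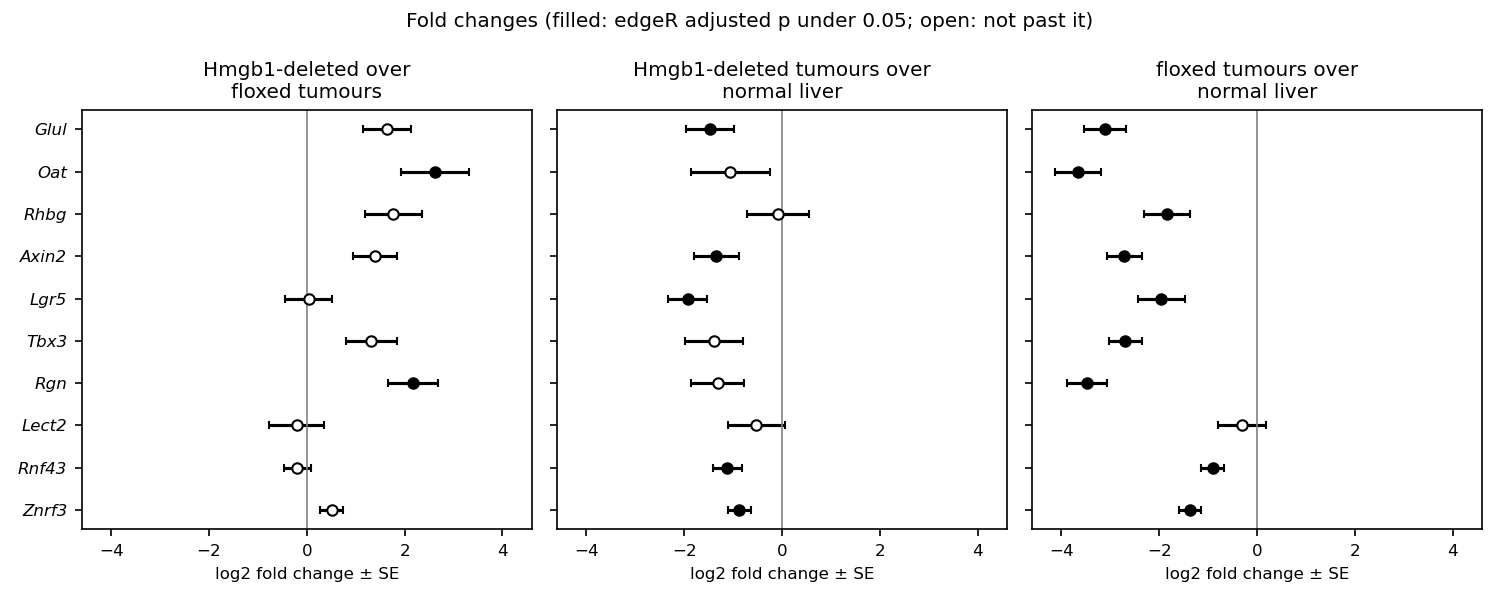
Log2 fold change ± SE of the 10 genes in the 3 comparisons, with filled points past an edgeR adjusted p under 0.05 and open points not past it. Of the 10 genes, 2 are filled for Hmgb1-deleted over floxed tumours, 5 for Hmgb1-deleted tumours over normal liver and 9 for floxed tumours over normal liver.

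Glul, Oat and Rhbg handle ammonia and amino acid nitrogen at the central vein. Glul, glutamine synthetase, fixes ammonia on glutamate. Its lowest, median and highest levels were 145, 309 and 816 CPM in Hmgb1-deleted tumours and 58.5, 84.6 and 257 CPM in floxed tumours, and normal livers 1 to 3 were at 943, 931 and 1171 CPM. All 12 tumours lay below the 3 normal livers, and 3 Hmgb1-deleted tumours lay above every floxed tumour. The log2 fold change of Glul was 1.65 ± 0.49 (SE) for Hmgb1-deleted against floxed tumours, which missed the threshold (edgeR adjusted p = 0.0574). It was -1.48 ± 0.49 for Hmgb1-deleted tumours against normal liver (adjusted p = 0.0428) and -3.11 ± 0.43 for floxed tumours against normal liver (adjusted p = 0.000259). The call in Hmgb1-deleted tumours against normal liver was lost without any 1 of the normal livers or of Hmgb1-deleted tumours 1, 2, 3, 5 or 6 (highest adjusted p = 0.124). That call was also lost with upper-quartile factors and without tumours 2 and 5 together (edgeR adjusted p = 0.0549 and 0.0869).

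Oat, ornithine aminotransferase, is a mitochondrial enzyme that turns ornithine towards glutamate. Levels of Oat ran, as lowest, median and highest, at 68.1, 359 and 1225 CPM in Hmgb1-deleted tumours and 26.7, 78.0 and 128 CPM in floxed tumours, against 789, 636 and 1443 CPM in normal livers 1 to 3. Hmgb1-deleted tumours 3 and 4, at 654 and 1225 CPM, lay within the range of normal livers, while tumours 1 and 5, at 68.1 and 102 CPM, lay within that of floxed tumours. Oat rose by 2.63 ± 0.69 on the log2 scale (SE) in Hmgb1-deleted against floxed tumours (edgeR adjusted p = 0.0361). This call was lost without any 1 of floxed tumours 1 to 5 or Hmgb1-deleted tumours 3, 4 or 6 (highest adjusted p = 0.0893) and with no filter on low counts (0.0514). Against normal liver the log2 fold change was -1.06 ± 0.81 in Hmgb1-deleted tumours (adjusted p = 0.323) and -3.66 ± 0.48 in floxed tumours (adjusted p = 0.000179).

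Rhbg is an ammonia transporter of the cell membrane. Rhbg had lowest, median and highest levels of 3.29, 8.33 and 33.5 CPM in Hmgb1-deleted tumours and 1.47, 2.65 and 7.11 CPM in floxed tumours, against 10.6, 11.04 and 16.4 CPM in normal livers 1 to 3. Hmgb1-deleted tumour 4 was above every normal liver. Tumours 3 and 6, at 14.1 and 11.2 CPM, were within the normal range, and tumours 1, 2 and 5 were below it. Rhbg fell by 1.84 ± 0.47 on the log2 scale in floxed tumours against normal liver (edgeR adjusted p = 0.00901). It did not pass for Hmgb1-deleted tumours against floxed tumours (log2 fold change 1.77 ± 0.59, adjusted p = 0.0827) or against normal liver (-0.08 ± 0.64, adjusted p = 0.93). The sign of that last difference turned when single libraries were left out.

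Rgn encodes regucalcin, a calcium-binding lactonase of hepatocytes that also serves vitamin C synthesis in mice. Rgn levels had a lowest, median and highest value of 196, 533 and 1233 CPM in Hmgb1-deleted tumours and 39.9, 142 and 182 CPM in floxed tumours, against 1300.5, 1360.3 and 1646.5 CPM in normal livers 1 to 3. Every Hmgb1-deleted tumour lay above every floxed tumour, as for 2.61% of all genes tested, and below every normal liver. The rise in Hmgb1-deleted against floxed tumours was 2.18 ± 0.51 on the log2 scale (SE, edgeR adjusted p = 0.0228). Its adjusted p was 0.0518 with floxed tumour 2 left out and 0.055 with Hmgb1-deleted tumour 4 left out. Rgn had a log2 fold change of -1.32 ± 0.54 in Hmgb1-deleted tumours against normal liver (adjusted p = 0.0838) and fell by 3.48 ± 0.41 in floxed tumours against normal liver (adjusted p = 9.19e-05).

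Lect2, a protein secreted by hepatocytes that attracts leukocytes, is described as a beta-catenin target in mouse liver. Its lowest, median and highest levels were 17.5, 60.2 and 155 CPM in Hmgb1-deleted tumours and 16.03, 90.5 and 131 CPM in floxed tumours, against 94.9, 105 and 109 CPM in normal livers 1 to 3. The 3 groups overlapped, and 3 of the 6 floxed tumours were below all normal livers. No comparison passed for Lect2 with all libraries, with edgeR adjusted p of 0.864 for Hmgb1-deleted against floxed tumours, 0.499 for Hmgb1-deleted tumours against normal liver and 0.625 for floxed tumours against normal liver. Among Hmgb1-deleted tumours it was at 107, 155 and 87.3 CPM in tumours 3, 4 and 6 and at 33.1, 29.5 and 17.5 CPM in tumours 1, 2 and 5.

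Axin2, Lgr5, Rnf43 and Znrf3 are targets that act back on the pathway, and Tbx3 is a target that encodes a transcription factor. Axin2 is a scaffold of the complex that destroys beta-catenin and is often read as a reporter of the pathway. The lowest, median and highest Axin2 levels were 1.68, 4.50 and 10.2 CPM in Hmgb1-deleted tumours and 0.955, 1.49 and 3.58 CPM in floxed tumours, against 11.4, 11.2 and 13.8 CPM in normal livers 1 to 3. All 12 tumours were below the normal livers, and 4 Hmgb1-deleted tumours were above every floxed tumour. Axin2 fell by 1.34 ± 0.46 on the log2 scale in Hmgb1-deleted tumours (edgeR adjusted p = 0.0463) and by 2.71 ± 0.37 in floxed tumours (adjusted p = 0.000221), each against normal liver. The first of these calls was lost without any 1 of the normal livers or of Hmgb1-deleted tumours 1, 2, 3 or 6 (highest adjusted p = 0.133). That call was also lost with upper-quartile factors, with library totals without a factor, with no filter and without tumours 2 and 5 (edgeR adjusted p = 0.0524 to 0.0773). Between Hmgb1-deleted and floxed tumours the log2 fold change of 1.39 ± 0.45 did not pass (adjusted p = 0.0782).

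Lgr5 is a receptor for R-spondins. Its lowest, median and highest levels were 1.12, 2.26 and 4.90 CPM in Hmgb1-deleted tumours and 0.955, 1.72 and 4.97 CPM in floxed tumours, against 11.54, 7.98 and 8.76 CPM in normal livers 1 to 3. The tumour groups covered nearly the same range, and all 12 tumours were below the normal livers. Lgr5 fell by 1.93 ± 0.40 on the log2 scale in Hmgb1-deleted tumours (edgeR adjusted p = 0.00751) and by 1.96 ± 0.48 in floxed tumours (adjusted p = 0.00721). It was called in both comparisons with normal liver under every alternative tried (highest adjusted p = 0.044 and 0.0352). Between Hmgb1-deleted and floxed tumours the log2 fold change was 0.04 ± 0.48 (adjusted p = 0.975).

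Rnf43 and Znrf3 are related ubiquitin ligases that remove Frizzled receptors from the cell surface. Rnf43 had lowest, median and highest levels of 11.6, 15.0 and 30.0 CPM in Hmgb1-deleted tumours and 15.6, 19.1 and 33.5 CPM in floxed tumours, against 39.7, 40.9 and 43.2 CPM in normal livers 1 to 3. Znrf3 had levels of 5.27, 9.10 and 12.5 CPM in Hmgb1-deleted tumours and 4.12, 6.55 and 8.82 CPM in floxed tumours, against 17.2, 15.8 and 18.8 CPM in normal livers. For both genes the tumour groups overlapped and all 12 tumours were below the normal livers. Against normal liver, Rnf43 fell by 1.12 ± 0.30 on the log2 scale in Hmgb1-deleted tumours (edgeR adjusted p = 0.0195) and by 0.91 ± 0.23 in floxed tumours (0.00912). Znrf3 fell by 0.87 ± 0.24 in Hmgb1-deleted tumours (adjusted p = 0.0201) and by 1.37 ± 0.22 in floxed tumours (0.00063). Both calls in Hmgb1-deleted tumours were lost when any 1 of the normal livers was left out (highest adjusted p = 0.0689 for Rnf43 and 0.0749 for Znrf3). The call of Znrf3 was also lost with library totals without a factor, with numbers 1 to 3 alone and without tumours 2 and 5 (edgeR adjusted p = 0.0541 to 0.0624). Between Hmgb1-deleted and floxed tumours neither passed, with log2 fold changes of -0.20 ± 0.28 for Rnf43 (adjusted p = 0.725) and 0.51 ± 0.23 for Znrf3 (0.199).

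Tbx3 is a T-box repressor known as a beta-catenin target in liver. For Tbx3 the lowest, median and highest levels were 3.62, 16.1 and 41.4 CPM in Hmgb1-deleted tumours and 3.03, 6.79 and 12.2 CPM in floxed tumours, against 49.6, 38.5 and 49.1 CPM in normal livers 1 to 3. Hmgb1-deleted tumour 4 was the 1 tumour within the normal range. Tbx3 fell by 2.69 ± 0.34 on the log2 scale in floxed tumours against normal liver (edgeR adjusted p = 0.000139). The log2 fold change of Hmgb1-deleted tumours was -1.39 ± 0.59 against normal liver (adjusted p = 0.0918) and 1.32 ± 0.52 against floxed tumours (adjusted p = 0.136), and neither passed. An antisense gene, Tbx3os1, overlaps Tbx3 in RefSeq, and the reads of the pair cannot be told apart without strand. Glul, Lgr5, Lect2 and Rnf43 also overlap another annotated gene (Mir8114, A930009A15Rik, Fbxl21, and 1110028F11Rik with Gm25968).

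Within the Hmgb1-deleted group the genes were high and low in the same tumours. Tumour 4 was the highest for all 10 genes. Tumours 3, 4 and 6 were the 3 highest for 9 of the 10, with Rnf43 as the exception, and this order held for 19.2% of 13433 genes tested. Tumour 1 was the lowest for 5 genes and tumour 5 for the other 5. Summed hepatocyte markers (Alb, Ttr, Apoa1, Trf, Serpina1a and Hnf4a) were at 139570 to 202670 CPM in tumours 3, 4 and 6 and at 86546 to 155380 CPM in tumours 1, 2 and 5. These ranges overlapped, with tumour 4 at 139570 CPM and tumour 1 at 155380 CPM. Summed cholangiocyte markers (Krt7, Krt19, Epcam, Sox9 and Spp1) were at 205 to 399 CPM in tumours 3, 4 and 6 and at 967 to 6104 CPM in tumours 1, 2 and 5. Spp1 made up most of that sum, Krt19 was at 0.597 to 2.53 CPM over the 6 tumours, and the part of these cells in the order was not tested. In floxed tumours tumour 6 was the highest for 7 of the 10 genes.

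**Figure D3:**
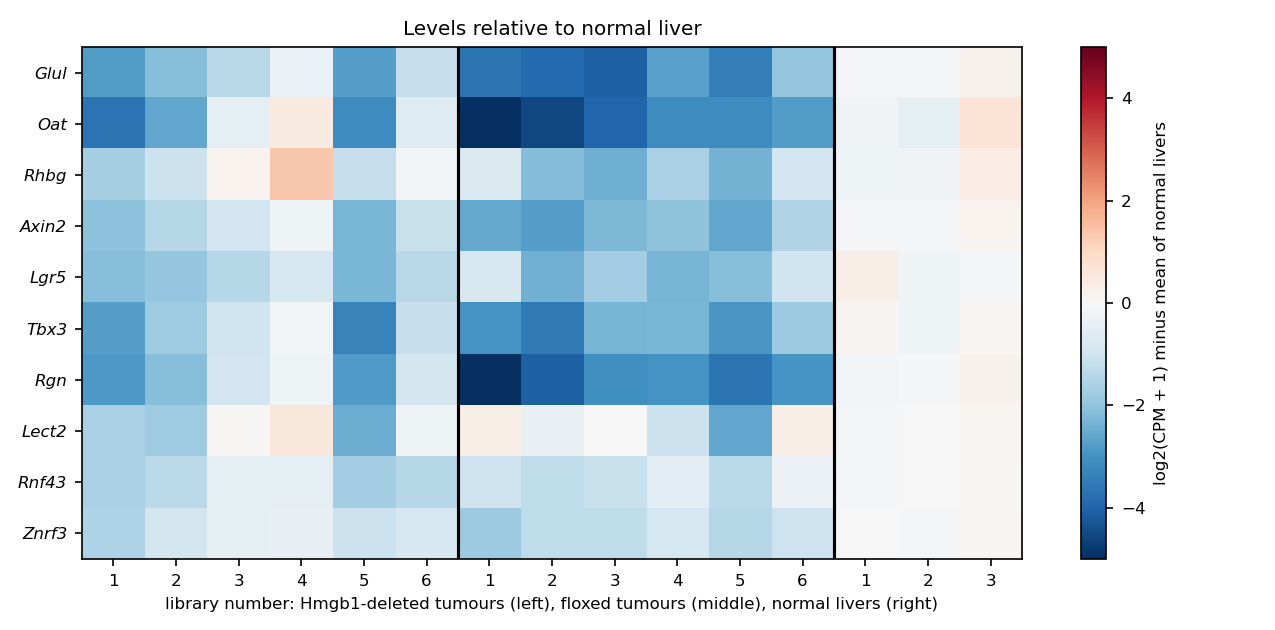
Level of the 10 genes in every library as log2(CPM + 1) minus the mean of the 3 normal livers, so that blue is below and red above normal liver. Hmgb1-deleted tumours 3, 4 and 6 are the palest of the 12 tumours for most genes, and Lect2 is near normal in several floxed tumours.

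Over the 6 Hmgb1-deleted tumours, Glul correlated with 6 of the other 9 genes. Pearson's r of log2(CPM + 1) with Glul was 0.99 for Rgn, 0.992 for Lgr5, 0.978 for Oat, 0.975 for Axin2, 0.969 for Rhbg and 0.966 for Tbx3 (n = 6, exact permutation p = 0.00139 to 0.00556, each adjusted p = 0.0167 over 18 relations). Of 13432 genes, 77 (0.573%), these 6 included, had an r with Glul of at least 0.966, and the median r was 0.05. Lect2, Znrf3 and Rnf43 had r of 0.936, 0.856 and 0.806 and did not pass (exact permutation, adjusted p = 0.0525, 0.0525 and 0.105). Spearman's rho was 1 for Rgn, 0.943 for Oat, Rhbg, Lgr5 and Znrf3, and 0.886 for Axin2 and Tbx3 (exact permutation p = 0.00278 to 0.0333), and none of these was below 0.05 after adjustment (0.05 to 0.0857). Without the 2 tumours farthest from the median of Glul, r was 0.994 for Rgn, 0.998 for Lgr5, 0.967 for Oat, 0.938 for Axin2, 0.915 for Rhbg and 0.944 for Tbx3. In the 6 floxed tumours none of the 9 relations with Glul passed, with r from 0.0897 for Lect2 to 0.898 for Rnf43 (n = 6, exact permutation, adjusted p = 0.0525 or higher). The r of Axin2 there was 0.864 and turned to -0.467 without the 2 tumours farthest from the median, so it rested on those samples. Floxed tumour 1 had 4.97 CPM of Lgr5, the highest of all 12 tumours, with 79.1 CPM of Glul. The difference in correlation between the tumour groups was not tested.

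**Figure D4:**
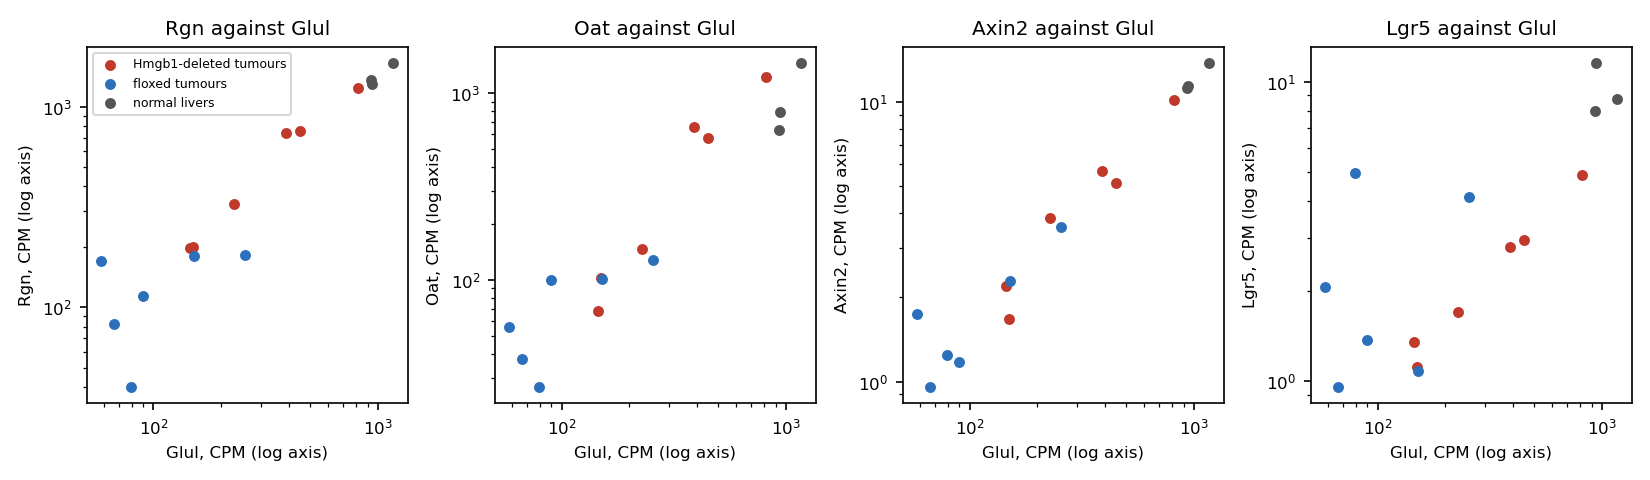
Level of Rgn, Oat, Axin2 and Lgr5 against that of Glul, in CPM on log axes, 1 point per library (red Hmgb1-deleted tumours, blue floxed tumours, grey normal livers). The red points follow a line in each panel, and in the Lgr5 panel a floxed tumour at 79.1 CPM of Glul has 4.97 CPM of Lgr5.

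The genes most like Glul over all 15 samples, among 11449 genes compared, were Cyp2e1 (Spearman's rho 0.982), Slc1a2 (0.971) and Pon1 (0.964). Those most like Axin2 were Pon1 (0.982), Rnase4 (0.968) and Ugt3a2 (0.968). The differences between the 3 groups are part of these values. Cyp2e1, a pericentral cytochrome P450, was at 519 to 7049 CPM in Hmgb1-deleted tumours, 185 to 1358 CPM in floxed tumours and 8772 to 11468 CPM in normal livers. Its log2 fold change for Hmgb1-deleted against floxed tumours, 2.29 ± 0.67, did not pass (edgeR adjusted p = 0.054).

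Other pericentral genes were then counted. In floxed tumours against normal liver 16 of 19 were lower and 1, the amino acid transporter Slc1a4, was higher (edgeR adjusted p under 0.05, where 48.7% of all genes were called). The median log2 fold change of the 19 was -2.84. Cyp2c29, a drug-metabolising P450, fell by 4.88 ± 0.35 on the log2 scale, the organic anion carrier Slco1b2 fell by 4.27 ± 0.37, the sterol hydroxylase Cyp27a1 fell by 2.90 ± 0.21, and Cyp2c37, another drug-metabolising P450, fell by 3.84 ± 0.33 (adjusted p = 5.82e-06 to 1.67e-05). Cyp2c29 and Cyp2c37 have near-identical relatives in the genome, which makes their counts uncertain. In Hmgb1-deleted tumours against normal liver 8 of the 19 were lower, with a median of -1.23, where 34.7% of all genes were called and 16.6% were lower. Among them were Avpr1a, a vasopressin receptor (-2.78 ± 0.42, adjusted p = 0.00245), and Slco1b2 (-2.13 ± 0.50, adjusted p = 0.0117). Without Hmgb1-deleted tumours 3, 4 and 6, 14 of 19 were called in either direction, as were 6462 of 13534 genes. That fit keeps the tumours of the group with the lowest sums of these genes, which lowers the sum by construction. Between Hmgb1-deleted and floxed tumours 6 of 19 were higher and Slc1a4 was lower, with a median of 1.49, against 7.78% of all genes called. Cyp7a1, which catalyses the slowest step from cholesterol to bile acids, rose by 2.99 ± 0.37 (adjusted p = 0.00131), and Cyp27a1 by 1.56 ± 0.28 (adjusted p = 0.00824). Both held under every alternative tried. Slco1b2 and Cyp2c37, which also rose, lost their calls without Hmgb1-deleted tumours 3, 4 and 6 (adjusted p = 0.132 and 0.183), and 3 were then called in either direction.

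Genes of the opposite, periportal side of the lobule gave the following counts. In floxed tumours against normal liver 17 of 24 were lower and 4 were higher, with a median log2 fold change of -1.47, where 23.8% of all genes were lower and 24.9% higher. Cyp2f2, a P450 of the periportal zone, fell by 4.16 ± 0.31, Cps1, which brings ammonia into the urea cycle, by 3.06 ± 0.25, and Gas2, a cytoskeletal protein, by 2.62 ± 0.19, while the apolipoprotein gene Apoa4 rose by 5.37 ± 0.54 (edgeR adjusted p = 6.18e-06 to 3.96e-05). In Hmgb1-deleted tumours against normal liver 6 were lower and 2 higher, with a median of -1.12, where 16.6% of all genes were lower and 18.1% higher. Both directions together are near the 34.7% of all genes called. Cps1 fell by 2.77 ± 0.38 (adjusted p = 0.00171) and Etnppl, a phospholyase, by 2.87 ± 0.43 (adjusted p = 0.0024). The number called in either direction was 20 without Hmgb1-deleted tumours 3, 4 and 6, with 6462 of 13534 genes called. Here too the tumours with the lowest sums of the listed genes remain, which lowers the sum by construction. In Hmgb1-deleted against floxed tumours 2 of 24 were higher, Cyp2f2 (3.03 ± 0.40, adjusted p = 0.0017) and Gas2 (1.64 ± 0.19, adjusted p = 0.00119), and both held under every alternative tried. This number is near the 7.78% of all genes called, and the median was 0.31. Without Hmgb1-deleted tumours 3, 4 and 6, 6 were called in either direction, as were 808 of 13925 genes. Of the 6 hepatocyte markers Apoa1, Trf and Serpina1a rose in floxed tumours against normal liver and no fall passed. The sum of all 6 was 153800 to 348370 CPM in floxed tumours and 116900 to 144760 CPM in normal livers. Most of it was Alb, which did not pass itself (edgeR adjusted p = 0.075). Between Hmgb1-deleted and floxed tumours none of the 6 markers passed, with a median log2 fold change of -0.88.

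Genes of the pathway upstream of beta-catenin were counted in the same fits. Of the Wnt ligand and secretion list 4 of 10 tested genes were lower and 1 higher in floxed tumours against normal liver, near the 48.7% of all genes called. Wnt5b, a ligand that mostly acts without beta-catenin, was at 1.26 CPM ± 0.65 in floxed tumours (SD, n = 6) and 5.21 CPM ± 0.94 in normal livers (SD, n = 3; log2 fold change -2.03 ± 0.39, edgeR adjusted p = 0.0019). Wnt2 and Rspo3, which central vein endothelium releases, fell by 1.56 ± 0.56 and 1.34 ± 0.49 on the log2 scale (adjusted p = 0.0409 and 0.0414). Each of the 2 lost its call without any 1 of 7 of the 9 libraries, floxed tumours 1, 2, 4 and 5 and the normal livers (highest adjusted p over all alternatives, 0.132 for Wnt2 and 0.112 for Rspo3). Wnt9b, the other ligand of central vein endothelium, was at 0.0784 to 1.96 CPM in floxed tumours and 1.08 to 2.23 CPM in normal livers and did not pass (adjusted p = 0.426). Summed endothelial markers (Pecam1, Cdh5, Kdr, Stab2, Lyve1 and Clec4g) were at 163 to 415 CPM in floxed tumours and 138 to 231 CPM in normal livers. The 415 CPM was floxed tumour 5, and the next was at 250 CPM. The log2 fold change was above 0 for 4 of the 6 markers, and 1 passed, Lyve1, which rose (edgeR adjusted p = 0.00982). Whether the endothelium of the central vein changed was not tested. In Hmgb1-deleted tumours against normal liver 1 of 10 passed, Porcn, which adds the lipid that Wnt ligands need for release (-1.27 ± 0.27, adjusted p = 0.00824), where 34.7% of all genes did. Its call was lost with all 15 samples in 1 fit (highest adjusted p over all alternatives, 0.0507). Without Hmgb1-deleted tumours 3, 4 and 6, 7 of the list passed, as did 6462 of 13534 genes. The tumours kept in that fit are those of the group farther from normal liver on the first principal component. Between Hmgb1-deleted and floxed tumours 1 of 9 passed, where 7.78% of all genes did. This was Wnt5b, at 3.39 CPM ± 0.65 in Hmgb1-deleted tumours and 1.26 CPM ± 0.65 in floxed tumours (SD, n = 6 each; 1.44 ± 0.33, adjusted p = 0.0194). Without Hmgb1-deleted tumours 3, 4 and 6 it did not pass (adjusted p = 0.0754), although its log2 fold change stayed at 1.27 to 1.75 over all alternatives.

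Most Wnt receptor calls against normal liver were falls. In floxed tumours against normal liver 8 of 12 were lower and Fzd3 was higher, with a median log2 fold change of -0.97, and in Hmgb1-deleted tumours against normal liver 6 of 12 were lower and Fzd3 was higher, with a median of -0.72. Of all genes 23.8% were lower in floxed tumours and 16.6% in Hmgb1-deleted tumours. Lrp6, the coreceptor that recruits the destruction complex, was at 55.0 CPM ± 6.98 in Hmgb1-deleted tumours, 49.7 CPM ± 8.97 in floxed tumours (SD, n = 6 each) and 117 CPM ± 7.40 in normal livers (SD, n = 3). It fell by 1.07 ± 0.12 in Hmgb1-deleted tumours (edgeR adjusted p = 0.000729) and by 1.23 ± 0.17 in floxed tumours (0.000298). Fzd7, a Frizzled receptor, was at 14.8 to 59.1 CPM in Hmgb1-deleted tumours, 7.04 to 13.2 CPM in floxed tumours and 29.9 to 40.7 CPM in normal livers. It was the 1 receptor of 12 that differed between Hmgb1-deleted and floxed tumours (1.54 ± 0.33, adjusted p = 0.0155), where 7.78% of all genes did, and the list's median was -0.13.

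Of 14 secreted and feedback inhibitors 7 were tested. Notum, a feedback enzyme that strips the lipid from Wnt ligands, was at 10.9 CPM ± 7.46 in Hmgb1-deleted tumours, 6.99 CPM ± 3.91 in floxed tumours (SD, n = 6 each) and 43.7 CPM ± 2.65 in normal livers (SD, n = 3). It fell by 2.003 ± 0.50 in Hmgb1-deleted tumours (edgeR adjusted p = 0.0145, and 0.0562 without normal liver 1) and by 2.64 ± 0.35 in floxed tumours (adjusted p = 0.000219). Nkd1, another feedback inhibitor, fell by 1.76 ± 0.35 in floxed tumours (adjusted p = 0.00222). Frzb, a decoy for Wnt ligands, rose in both comparisons, and its calls were lost without any 1 normal liver. In all, 2 rose and 2 fell in floxed tumours against normal liver (median 1.27), 3 rose and 1 fell in Hmgb1-deleted tumours against normal liver (median 1.12), and none of 7 passed between Hmgb1-deleted and floxed tumours (median 0.53). Of all genes 48.7%, 34.7% and 7.78% were called in these comparisons.

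For the destruction complex and the nuclear partners of beta-catenin, 6 of 18 genes were lower and 2 higher in floxed tumours against normal liver, 3 of 17 were lower in Hmgb1-deleted tumours against normal liver, and 1 of 18 was higher between Hmgb1-deleted and floxed tumours (medians -0.18, -0.29 and 0). With both directions together these numbers lie at or below the 48.7%, 34.7% and 7.78% of all genes called. Of all genes 23.8% were lower in floxed tumours and 16.6% in Hmgb1-deleted tumours, each against normal liver. The gene of the last comparison was the kinase Gsk3a, at 20.5 CPM ± 1.64 in Hmgb1-deleted tumours and 15.0 CPM ± 1.13 in floxed tumours (SD, n = 6 each; 0.47 ± 0.10, edgeR adjusted p = 0.0119). It did not pass without tumours 2 and 5 or without 3, 4 and 6 (highest adjusted p = 0.059), although its log2 fold change stayed at 0.40 to 0.66 over all alternatives. Ctnnb1, which encodes beta-catenin, was at 242 CPM ± 36.7 in Hmgb1-deleted tumours, 307 CPM ± 50.6 in floxed tumours and 312 CPM ± 28.8 in normal livers and passed in no comparison (adjusted p = 0.148 to 0.954). Bcl9l, a coactivator of beta-catenin, fell by 1.33 ± 0.27 in Hmgb1-deleted tumours (adjusted p = 0.00643) and by 1.65 ± 0.24 in floxed tumours (0.000374), each against normal liver. Of 5 other beta-catenin targets tested, Ccnd1, the cell cycle gene for cyclin D1, and Cd44, an adhesion receptor, rose against normal liver in tumours of both genotypes and none fell, where 34.7% of all genes were called in Hmgb1-deleted and 48.7% in floxed tumours. Ccnd1 rose by 1.87 ± 0.36 in Hmgb1-deleted tumours (adjusted p = 0.00594) and by 2.03 ± 0.31 in floxed tumours (0.000448). Cd44 rose by 1.71 ± 0.41 in Hmgb1-deleted tumours (adjusted p = 0.0127, and 0.057 without normal liver 2) and by 1.98 ± 0.32 in floxed tumours (0.000632). Both are also expressed by cells other than hepatocytes, and none of the 5 passed between Hmgb1-deleted and floxed tumours.

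**Figure D5:**
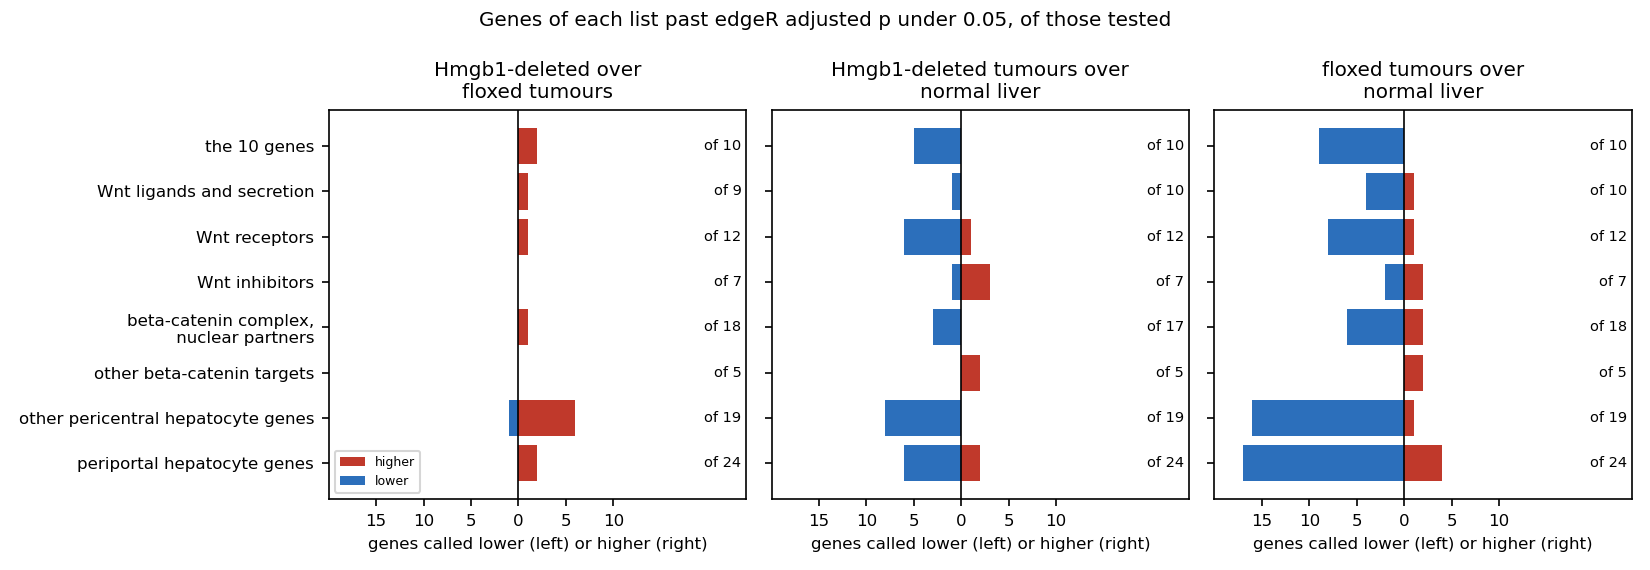
Number of genes of each list called lower (blue, to the left of 0) or higher (red, to the right) by edgeR at an adjusted p under 0.05 in the 3 comparisons, with the number tested at the right. Lower calls dominate for pericentral, periportal and receptor genes in floxed tumours against normal liver, where 23.8% of all genes were called lower.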

How the data were processed

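Poly-A RNA of 12 mouse liver tumours and 3 normal livers was sequenced with TruSeq libraries, per the labels. The authors deposited raw read counts per gene symbol, not normalized. The submitters' processing notes name build mm9 and, as tools, HTSeq 0.6.1, Bowtie2 2.2.4, TopHat2 2.1.0 and bcl2fastq 1.8.4. The annotation, whether counting used strand, and how multiply mapped reads were handled: not given in the sources used here.

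In each comparison only its own groups entered the fit. Low genes were removed with filterByExpr, and counts were scaled with TMM and tested with the quasi-likelihood F test of edgeR 4.0.16 (robust, group as the only term) in R 4.3.3, with Benjamini-Hochberg adjustment over all genes tested. Standard errors come from the F statistic. CPM uses TMM over all 15 libraries. A gene with 0 counts could be at up to 0.11 to 0.169 CPM (3 counts), for counting error only. Permutation tests were exact and two-sided, on absolute values. The edgeR test was checked on simulated counts.

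The 10 genes and the 7 pathway lists were chosen with earlier results of these data known. All 10 genes are named, and of each list up to 4 called genes with the smallest p, of which a choice is printed. Named beyond that rule were Wnt9b, Ctnnb1, Slc1a4, Fzd3, Krt19, Lyve1 and the genes of the closing observations, after their values were seen. Older symbols were used for 3 of 153 list entries. The alternatives were RLE and upper-quartile factors, library totals without a factor, no filter, at least 1 CPM, DESeq2 1.42.0, voom in limma 3.58.1, all 15 samples in 1 fit, the replicate number as a block, numbers 1 to 3 alone, and libraries left out singly and as 2 and 5 or 3, 4 and 6.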

Additional observations from a re-analysis of the deposited data

Results flagged for a closer look

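Rhbg in Hmgb1-deleted tumour 4 stood far from the rest of its group, at 33.5 CPM with the next tumour at 14.1 CPM, by Dixon's test at its 95% critical value. It was the only case among 20 groups of 6 tumours examined (10 genes, each in Hmgb1-deleted and in floxed tumours), and chance alone would give about 1 in 20.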

How the results depend on the processing

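The count of the 10 genes changed in floxed tumours against normal liver was 9 under every alternative, and the genes changed in that comparison numbered 4860 to 6966 when single libraries were left out. Between Hmgb1-deleted and floxed tumours, where 2 of the 10 were changed, this count was 5 with library totals, DESeq2 or all 15 samples in 1 fit, 4 with voom or without Hmgb1-deleted tumours 2 and 5, 1 with no filter, 0 without tumours 3, 4 and 6, and 0 to 4 when single libraries were left out. The genes changed there, 1045, were 1954 with DESeq2, 1629 with all 15 samples in 1 fit and 589 to 1054 without single libraries. For Hmgb1-deleted tumours against normal liver, where 5 of the 10 were changed, the count was 3 with upper-quartile factors or library totals, 2 without tumours 2 and 5, 10 without tumours 3, 4 and 6, and 1 to 7 without single libraries, and the genes changed were 2113 to 4912. The log2 difference in Hmgb1 against normal liver was 0.24 in floxed tumours (exact permutation p = 0.155) and -0.65 in Hmgb1-deleted tumours (exact permutation p = 0.0119). With library totals these differences were 0.31 (exact permutation p = 0.0476) and -0.38 (exact permutation p = 0.167), so both moved across 0.05. Without single libraries the log2 difference in Hmgb1 was -0.94 to -0.78 for Hmgb1-deleted against floxed tumours. It was -0.79 to -0.47 for Hmgb1-deleted tumours against normal liver and 0.10 to 0.42 for floxed tumours against normal liver. Except where a library is named, the cause was not tested.

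Signs turned for values that had not passed. The log2 fold change of Lect2 in Hmgb1-deleted against floxed tumours was 0.19 without tumours 2 and 5. That of Lgr5 was -0.80 without tumours 3, 4 and 6, -0.12, -0.0023, -0.12 and -0.09 without floxed tumour 2, 3, 4 or 5, and -0.0039, -0.30 and -0.02 without Hmgb1-deleted tumour 3, 4 or 6, with a range of -0.30 to 0.36 over single libraries. That of Rhbg in Hmgb1-deleted tumours against normal liver was 0.066 with upper-quartile factors, 0.11 with library totals, 0.28 without tumours 2 and 5, 0.12, 0.07 and 0.08 without Hmgb1-deleted tumour 1, 2 or 5, and 0.16 without normal liver 3, with a range of -0.68 to 0.16 over single libraries. In floxed tumours Pearson's r with Glul was -0.15 for Lect2 with library totals. Without the 2 tumours farthest from the median it was -0.467 for Axin2, -0.266 for Tbx3, -0.432 for Rgn, -0.675 for Lect2, -0.375 for Rnf43 and -0.536 for Znrf3.

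Scaling moved the split of calls. For Hmgb1-deleted against floxed tumours 598 genes were higher and 447 lower, against 982 and 257 with library totals, where the median of all genes was 0.20. For Hmgb1-deleted tumours against normal liver 2492 were higher and 2295 lower, against 3390 and 1578 with upper-quartile factors (median 0.21) and 2969 and 1062 with library totals (median 0.33). For floxed tumours against normal liver 4363 were higher and 2509 lower with upper-quartile factors (median 0.23).

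The replicate numbers did not pair the samples: same-numbered deviations correlated at -0.272 to 0.233 for Hmgb1-deleted and floxed tumours, and 2 of 6 Hmgb1-deleted tumours correlated best with the floxed tumour of their number. With the replicate block the count of the 10 genes was 4 between Hmgb1-deleted and floxed tumours and 8 between Hmgb1-deleted tumours and normal liver, where 3055 genes were changed. That last fit holds numbers 1 to 3 alone, which without the block gave 6 of the 10 and 3679 genes. The block also ended the call of Porcn in Hmgb1-deleted tumours against normal liver.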
